A study of Mus musculus with 18 samples.

Results

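Hormone-sensing cells are the mature luminal cells of the mammary duct that carry receptors for prolactin, progesterone and estrogen. Cells of this kind were followed in 6 droplet single-cell RNA libraries from FVB/NJ mice, 2 each from pregnancy day 12.5 (libraries H, G), pregnancy day 18.5 (F4, B4) and lactation day 10 (F11, D6). The members were chosen by measured counts: at least 500 genes, under 20% mitochondrial counts, more Krt8 and Krt18 than Krt5 and Krt14 molecules, and at least 3 molecules of Prlr, Cited1, Pgr, Esr1 and Foxa1 together, more than of Kit, Elf5, Aldh1a3 and Plet1 together. This rule found 1440 cells among 28261 luminal cells (5.10%), 53746 kept cells of any kind in these libraries and 149371 barcodes in the 18 libraries of the series. The libraries held 182 (H), 243 (G), 368 (F4), 173 (B4), 274 (F11) and 200 (D6) hormone-sensing cells. Cells called alveolar, the class that holds the milk-forming luminal cells, were taken from the same libraries within the same limits. They had at least 1 molecule of Kit, Elf5, Aldh1a3 and Plet1 together and more of these than of the 5 hormone genes. The paper treats Elf5 and Aldh1a3 as luminal progenitor genes, so this class may also hold progenitors. Milk genes made up 13.4 and 13.9% of its counts at pregnancy day 12.5, 33.9 and 35.4% at day 18.5 and 75.2 and 77.5% in lactation. The class numbered 23895 cells, and 2926 luminal cells fell in neither class.

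All 3 groups were of the FVB/NJ strain, and the labels give no transgene, treatment or age, so reproductive stage was the one named difference. The labels give no batch either, and the paper's list of samples processed together names none of these libraries. Stage therefore cannot be told apart from capture or sequencing batch. Each library was prepared from pooled mice and depleted of endothelial and blood cells by sorting, so a library, and not a cell, was the replicate. P-values of the stage tests therefore measure the spread between 2 pools per stage. Those for stage changes that differ between the classes measure the spread between pools of the class difference. In both fits the spread of a gene was estimated with information shared across genes. Very small p-values therefore do not come from 2 pools per stage alone.

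Prolactin acts on these cells through its receptor, the kinase Jak2 and the transcription factor Stat5a, and progesterone acts through Pgr. Hormone-sensing cells are known to pass the steroid signal on to neighbouring cells by secreted factors. Amphiregulin (Areg) is the estrogen-dependent relay of ductal growth, and RANK ligand (Tnfsf11) and Wnt4 are the progesterone-dependent relays of alveolar growth and side branching.

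Library totals ran from 42983751 to 93234616 unique molecular identifiers (UMIs, each a counted RNA molecule), and the summed counts of the hormone-sensing cells from 891352 to 1605034. The share of barcodes kept was between 90.2 and 97.9% in the 4 pregnancy libraries, and 49.1% (F11) and 68.3% (D6) in lactation. Hormone-sensing cells had median depths of 4441 and 4404 UMIs at pregnancy day 12.5, 3636 and 7166 at day 18.5 and 2844 and 2235 in lactation, and alveolar cells of the same libraries 7151 and 7429, 6800 and 13143, and 9278 and 20264. The median mitochondrial share of hormone-sensing cells was between 4.71 and 10.8% and that of alveolar cells between 1.96 and 5.81%. Of the hormone-sensing cells, 1 barcode was shared by 2 libraries (B4 and D6). Milk transcripts set the scale of every lactation library, so levels are given below as CPM, that is counts scaled to a total of 1e6 outside 8 milk genes, always in the order H and G, F4 and B4, F11 and D6.

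The genes that chose the cells are given as a description. Prlr, the prolactin receptor (15:10177238-10349180, plus strand, mm10), was at 979 and 986 CPM at pregnancy day 12.5, 1292 and 1224 at day 18.5 and 1538 and 1334 in lactation. Cited1, a transcriptional co-regulator (X:102247381-102252181, minus strand), was at 601 and 544 CPM at pregnancy day 12.5, 1051 and 829 at day 18.5 and 2015 and 1516 in lactation. Pgr, the progesterone receptor, was at 109 and 114 CPM at pregnancy day 12.5, 86.7 and 183 at day 18.5 and 62.5 and 8.93 in lactation, the last value from 5 molecules. Prlr and Cited1 CPM were highest in the lactation libraries and Pgr was lowest in D6. The rule asks for at least 3 molecules, so depth enters these levels and they give no ranking of stages. Median depth outside the milk genes was 4392 and 4369, 3518 and 7020, and 2070.5 and 2062.5 UMIs. Members held a median of 8 and 8, 8 and 15, and 7 and 7 molecules of the 5 genes.

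Esr1, the estrogen receptor, was at 60.7 and 68.1 CPM at pregnancy day 12.5, 55.4 and 61.6 at day 18.5 and 57.7 and 130.3 in lactation, and Foxa1, its pioneer factor, at 141 and 128 CPM at pregnancy day 12.5, 82.3 and 141 at day 18.5 and 131 and 94.6 in lactation. Prlr made up between 40.4 and 53.6% of the 5 genes' molecules and Cited1 between 29.6 and 53.0%, so these 2 genes carried most of the molecules that chose the cells. Cells chosen on Prlr alone were 5.49 and 6.58% of members at pregnancy day 12.5, 9.24 and 2.31% at day 18.5 and 9.85 and 11% in lactation. Prlr was also seen in 16.9 to 49.7% of alveolar cells.

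At the threshold, members with exactly 3 molecules of the 5 genes were set beside cells that passed all other limits with 2. At pregnancy day 18.5, cells with 3 molecules had 1756 (F4) and 1119 (B4) Calca CPM, counted here outside the milk genes, and cells with 2 had 364 and 0. The alveolar gene Trf, transferrin, was at 9534 and 373 CPM in cells with 3 molecules and at 21859 and 25729 in cells with 2. In lactation library D6 the 31 cells with 3 molecules had a median of 20510 UMIs, 28122 Trf CPM and no Calca, and the 63 cells with 2 molecules had 15430 UMIs, 27327 Trf CPM and no Calca. In F11 the 35 cells with 3 molecules had 211 Calca and 9717 Trf CPM and the 48 cells with 2 had 97.2 and 14599, while the 36 cells with 4 had 1798 and 3568.

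Hormone-sensing cells made up 2.75% (H, exact 95% binomial interval 2.37 to 3.17) and 4.35% (G, 3.83 to 4.92) of luminal cells at pregnancy day 12.5. The shares were 5.63% (F4, 5.08 to 6.21) and 6.37% (B4, 5.48 to 7.35) at day 18.5, and 8.73% (F11, 7.77 to 9.78) and 5.47% (D6, 4.75 to 6.25) in lactation. The stage means were 3.55% ± 1.13, 6.00% ± 0.526 and 7.10% ± 2.31 (SD, n = 2 each). By an exact two-sided permutation test over the 90 assignments of libraries to stages, p was 0.2, and the smallest value the design allowed was 0.0667. Both day 12.5 libraries were below the other 4, and the day 18.5 and lactation libraries overlapped.

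When each cell was thinned to 1000 counts outside the milk genes, the stage means were 0.992, 3.43 and 6.04% and the exact permutation p was 0.0667, the smallest possible. Thinned instead to 2000 UMIs of all genes, the means were 2.40, 5.79 and 6.71% and the exact permutation p was 0.2. With Prlr left out of the rule, or with at least 5 hormone gene UMIs, the exact permutation p was 0.333. Without the hormone-sensing cells that were at least 50% milk, and with all luminal cells below the line, the lactation mean was 5.93% and the exact permutation p 0.533. When luminal cells of every class with at least 50% milk counts were left out, the shares were 2.75 and 4.35%, 6.01 and 7.22%, and 25.2 and 26.9% of 996 and 525 luminal cells, with an exact permutation p of 0.0667. The lactation share therefore moved with the handling of milk-rich alveolar cells. These intervals cover counting error only, and the number of counts per cell enters the rule.

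**Figure D1:**
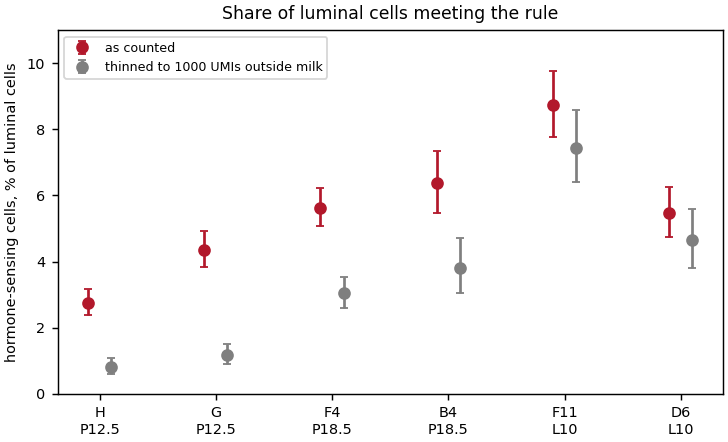
Share of hormone-sensing cells among luminal cells (vertical axis, percent) in the 6 libraries, as counted and after thinning to 1000 counts outside the milk genes, with exact 95% binomial intervals. As counted, the day 12.5 libraries sit at 2.75 and 4.35% and the other 4 between 5.47 and 8.73%.

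Markers of hormone-sensing cells that the rule did not use were compared with alveolar cells of the same library. This comparison is a description without a test, because 1 rule cut both classes from the same counts. Of 10 such markers measured, 9 were higher in hormone-sensing cells in 6 of 6 libraries, with a median log2 difference of 2.98 (5 CPM added to each side), where 32.8% of 4387 genes over 30 CPM were higher in 6 of 6 and 17.0% lower in 6 of 6. The exception was Ly6a, a surface antigen, with a median difference of 0.01 and a higher level in 3 of 6. Greb1, an estrogen target, was not measured over 1 CPM.

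Calca, the calcitonin gene (7:114631478-114636357, minus strand), had the largest difference of the genes over 30 CPM, with a median log2 difference of 7.45. Its level was 4666 and 3766 CPM at pregnancy day 12.5, 2634 and 2310.4 at day 18.5 and 2176 and 12.5 in lactation, against 0.144 to 14.5 in alveolar cells. In 5 libraries Calca stood far above the alveolar level, and in D6 it rested on 7 molecules from 1 cell. Calca was seen in 99.5 and 97.5%, 79.6 and 67.6%, and 44.9 and 0.500% of hormone-sensing cells, and in at most 2.27% of basal cells, whose median depths were 1799 to 4114 UMIs.

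Tph1, the enzyme of serotonin synthesis (7:46644641-46672537, minus strand), was at 407 and 398 CPM at pregnancy day 12.5, 712 and 645 at day 18.5 and 567 and 609 in lactation in hormone-sensing cells and between 0.936 and 4.58 in alveolar cells. Its median log2 difference was 6.16. Without the members of at least 50% milk counts, the milk-rich cells described below, its lactation levels were 623 (F11) and 1056 (D6). Prom1, a membrane glycoprotein, was at 35.5 and 37.1 CPM at pregnancy day 12.5, 37.2 and 59.8 at day 18.5 and 38.4 and 17.9 in lactation, and Tbx3, a transcription factor, at 32.1 and 30.2 CPM at pregnancy day 12.5, 33.5 and 72.1 at day 18.5 and 43.3 and 21.4 in lactation, against at most 1.17 in alveolar cells for either gene.

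Among the other genes highest against alveolar cells were Wfdc12, Fxyd2, Gpx3 and Slpi, which were not tested as a group. Wfdc12, a whey acidic protein family inhibitor, was at 8478 and 7216 CPM at pregnancy day 12.5, 3371 and 5346 at day 18.5 and 3279 and 1453 in lactation. Fxyd2, a regulator of the sodium pump, was at 1172 and 1364 CPM at pregnancy day 12.5, 4099 and 4596 at day 18.5 and 4152 and 5451 in lactation. Gpx3, the extracellular glutathione peroxidase, was at 1939 and 1625 CPM at pregnancy day 12.5, 5113 and 7552 at day 18.5 and 1926 and 1428 in lactation. Fxyd2 was lowest at day 12.5 and Gpx3 highest at day 18.5. Without the milk-rich cells the F11 and D6 levels were 3585 and 2461 for Wfdc12, 4497 and 9584 for Fxyd2, and 2019 and 2475 for Gpx3, so Wfdc12 in F11 then lay above F4.

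Slpi, a leukocyte protease inhibitor, was at 18796 and 15714 CPM at pregnancy day 12.5, 11097 and 7934 at day 18.5 and 7739 and 482 in lactation and was low in D6 alone. Tmprss6, a membrane protease, had a median log2 difference of 6.04, Bmp3, a bone morphogenetic protein, 5.68, Samd5 5.65, Hepacam2 5.44, Apof, an apolipoprotein, 5.21, and Cxcl15, a chemokine, 5.17. The 8 lowest were alveolar genes: Glycam1 (-3.25), the potassium channel Kcnn4 (-3.10), Trf (-3.04), the caseins Csn3 (-3.01) and Csn1s2a (-2.93), lactoferrin Ltf (-2.89), osteopontin Spp1 (-2.89) and the lipogenic regulator Thrsp (-2.88).

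Genes were tested between stages in hormone-sensing cells with 1 fit over 8328 genes. The genes of the rule stayed in the fit and were 0, 0 and 1 of the calls in the 3 contrasts below. Their tests are not reported. At day 18.5 against day 12.5, 186 genes (2.23%) were called at an adjusted p under 0.05, 81 higher (0.973%) and 105 lower (1.26%). Lactation against day 18.5 gave 226 (2.71%), 153 higher (1.84%) and 73 lower (0.877%), and lactation against day 12.5 gave 530 (6.36%), 329 higher (3.95%) and 201 lower (2.41%). These 3 comparisons share libraries. Log2 changes are on the scale of trimmed-mean (TMM) scaled counts, and leaving out that scaling moved the median of all genes by 0.14, -1.32 and -1.18. Without it the calls split into 57 higher and 51 lower, 90 and 4130, and 125 and 3102.

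Among the hormone-regulated relays, 2 fell after pregnancy day 12.5. Tnfsf11 (14:78277445-78308043, minus strand) was at 567 and 614 CPM at pregnancy day 12.5, 5.83 and 22.0 at day 18.5 and 64.1 and 7.14 in lactation. It fell from day 12.5 to day 18.5 (log2 change -5.60, SE 0.75, adjusted p = 0.00391) and was lower in lactation than at day 12.5 (-3.90, SE 0.70, adjusted p = 0.00792). No day 18.5 or lactation library came near the day 12.5 level. The first of these calls was lost without F4.

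Areg (5:91139599-91148432, plus strand) was at 616 and 602 CPM at pregnancy day 12.5, 34.2 and 54.5 at day 18.5 and 473 and 21.4 in lactation. It fell from day 12.5 to day 18.5 (log2 change -3.96, SE 0.91, adjusted p = 0.0474). The lactation libraries lay far apart, F11 below both day 12.5 libraries and D6 below all other libraries. Lactation against day 12.5 gave -1.18 (adjusted p = 0.438). The call at day 18.5 was kept in 2 of 6 fits that left out 1 library. Wnt4 (4:137277489-137299726, plus strand) was at 560.2 and 602 CPM at pregnancy day 12.5, 310.4 and 336 at day 18.5 and 308 and 87.5 in lactation, and was not called between stages in hormone-sensing cells (lactation against day 12.5 -1.43, SE 0.47, adjusted p = 0.0975).

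Calca, with lactation values of 2176 and 12.5, was not called between stages in hormone-sensing cells (adjusted p from 0.400 to 0.772), nor was Tph1 (0.225 to 0.908). Pthlh, parathyroid hormone-related protein, was at 9.16 and 4.31 CPM at pregnancy day 12.5, 5.10 and 2.64 at day 18.5 and 11.2 and 66.1 in lactation and rose from day 18.5 to lactation (3.53, SE 0.76, adjusted p = 0.0336), while alveolar cells of the lactation libraries held 60.1 and 77.5 and basal cells 96.7 and 65.6. Of 7 hormone-regulated signals tested, 0 rose and 2 fell at day 18.5, 1 rose and 0 fell from day 18.5 to lactation, and 0 were higher and 1 lower in lactation than at day 12.5, with medians of -0.95, 1.17 and -1.18. Over all genes 1.26% fell at day 18.5, 1.84% rose to lactation and 2.41% were lower over the span. The median over all genes tested was 0.01, 0.02 and 0.01. Without 1 library the falls at day 18.5 numbered 0 (F4), 1 (H, G or B4) or 4 (F11 or D6). Pthlh was not called without F4, B4 or D6, and without D6 2 rose to lactation. Without F11 2 signals fell from day 18.5 to lactation, and over the span 1 was higher and 4 lower.

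**Figure D2:**
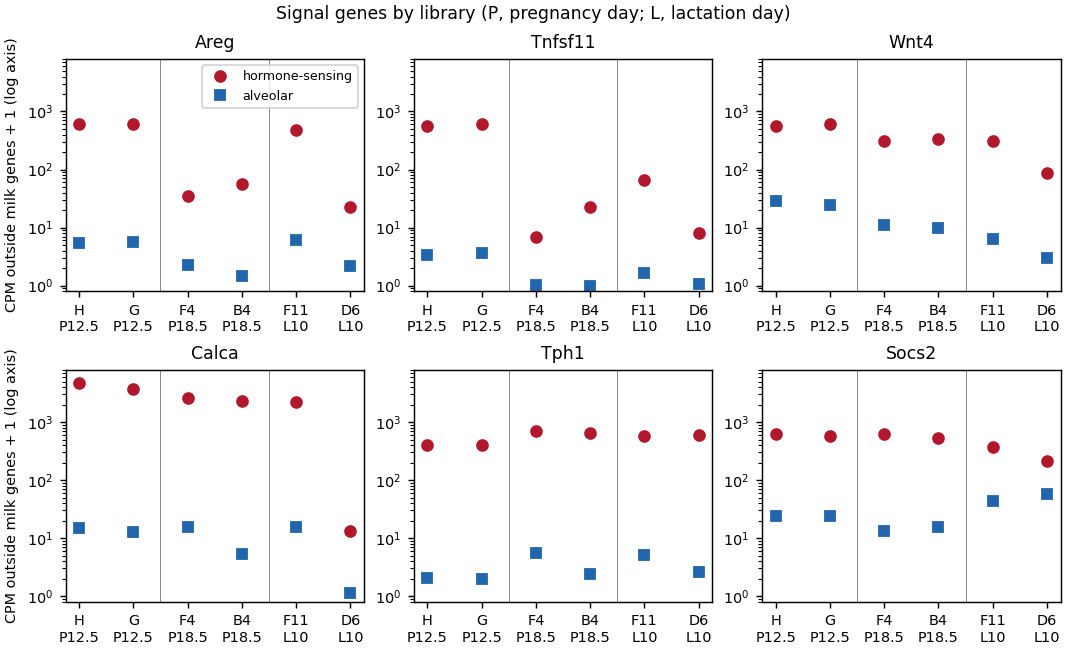
Levels of Areg, Tnfsf11, Wnt4, Calca, Tph1 and Socs2 in hormone-sensing and alveolar cells of each library (vertical log axis, CPM outside the milk genes plus 1; 1 point per library and class). Tnfsf11 drops from 567 and 614 to 5.83 and 22.0 between the pregnancy days, while Tph1 lies between 398 and 712, with a D6 value of 609 that is 1056 without the milk-rich cells.

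The 10 markers tested outside the rule showed 0 higher and 2 lower at day 18.5, 1 higher and 0 lower from there to lactation, and 2 higher and 1 lower in lactation than at day 12.5 (medians -0.77, 0.56 and -0.02). The shares over all genes were 0.973% higher and 1.26% lower, 1.84 and 0.877%, and 3.95 and 2.41%. Without 1 library the falls at day 18.5 numbered 0 (F4), 1 (H, G or B4) or 5 (F11 or D6). The rises to lactation numbered 2 (F11) or 4 (D6), without F11 2 also fell there, and over the span 4 were lower without F11 and 0 or 1 higher without G or H. S100a6, a calcium-binding protein, was at 272 and 313 CPM at pregnancy day 12.5, 237 and 205 at day 18.5 and 852 and 182 in lactation, highest in F11 (D6 was at 251 without the milk-rich cells), and was not called between stages in hormone-sensing cells. Ly6a was at 68.7 and 31.0 CPM at pregnancy day 12.5, 20.4 and 17.6 at day 18.5 and 425 and 173 in lactation and rose from day 18.5 to lactation (4.27, SE 0.50, adjusted p = 0.00127). Alveolar cells held 772 and 616 Ly6a CPM in lactation.

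Of the steroid receptor targets, 4 fell between the 2 pregnancy days. Fkbp5, a chaperone and a progesterone and glucocorticoid target (17:28399094-28517527, minus strand), was at 108 and 111 CPM at pregnancy day 12.5, 16.0 and 7.92 at day 18.5 and 36.8 and 26.8 in lactation. Its fall from day 12.5 to day 18.5 (log2 change -3.34, SE 0.36, adjusted p = 0.00172) was called under all 10 other settings and in 6 of 6 fits without a library. In alveolar cells Fkbp5 was at 17.5 and 16.8 CPM at pregnancy day 12.5, 28.5 and 26.8 at day 18.5 and 79.7 and 20.9 in lactation.

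Zbtb16, a zinc finger repressor (9:48654297-48836222, minus strand), was at 60.7 and 48.3 CPM at pregnancy day 12.5, 4.37 and 7.04 at day 18.5 and 14.4 and 10.7 in lactation and fell at day 18.5 (-3.42, SE 0.40, adjusted p = 0.00222). In alveolar cells Zbtb16 was at 1.5 and 1.69 CPM at pregnancy day 12.5, 11.7 and 9.53 at day 18.5 and 6.85 and 12 in lactation and in basal cells at 1.46 and 1.49 CPM at pregnancy day 12.5, 18.0 and 22.9 at day 18.5 and 28.5 and 29.7 in lactation, so the class with the highest level at day 12.5 had the lowest at day 18.5. Myb, a transcription factor (10:21124935-21160984, minus strand), was at 43.5 and 59.5 CPM at pregnancy day 12.5, 6.56 and 6.16 at day 18.5 and 48.1 and 3.57 in lactation and fell at day 18.5 (-3.19, SE 0.67, adjusted p = 0.0330). F11 was back at the day 12.5 level of Myb and D6 was not.

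Ccnd1, cyclin D1, was at 45.8 and 65.5 CPM at pregnancy day 12.5, 13.8 and 12.3 at day 18.5 and 33.6 and 28.6 in lactation and fell at day 18.5 (-2.27, SE 0.35, adjusted p = 0.00681). Of 11 steroid receptor targets tested, these 4 fell and 0 rose at day 18.5, 1 rose and 0 fell from day 18.5 to lactation (Fkbp5, 1.70, SE 0.40, adjusted p = 0.0493), and 0 were higher and 2 lower in lactation than at day 12.5, with medians of -0.95, 0.83 and -0.72. Of all 8328 genes, 1.26% fell at day 18.5, 1.84% rose to lactation and 2.41% were lower over the span. The number that fell at day 18.5 was 1 without F4, 2 without G or B4 and at most 6 otherwise. The rise of Fkbp5 was lost without H, G, F4, B4 or F11, and 0 were lower over the span without H or G. Sgk1, a kinase that steroids induce, was at 433 and 423 CPM at pregnancy day 12.5, 581 and 408 at day 18.5 and 439 and 511 in lactation and Igfbp5, an insulin-like growth factor binding protein, at 984 and 1022 CPM at pregnancy day 12.5, 572 and 828 at day 18.5 and 308 and 539 in lactation, and neither was called.

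**Figure D3:**
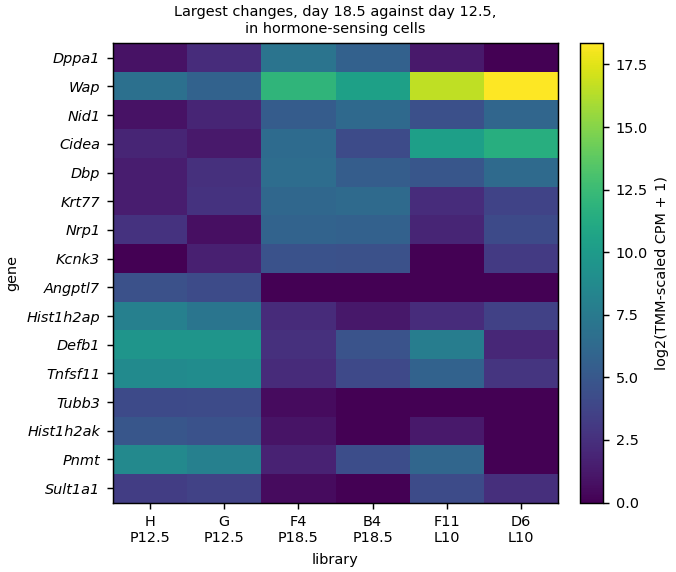
Heat map of the 8 largest rises and 8 largest falls between pregnancy days 12.5 and 18.5 in hormone-sensing cells, chosen by size among called genes (columns, the 6 libraries; colour, log2 of TMM-scaled CPM plus 1). The risers Dppa1 and Krt77 return toward the day 12.5 level in lactation, and Tnfsf11, Defb1 and Pnmt are again raised in F11 and not in D6.

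Signalling below the prolactin receptor was compared next. Socs2, the STAT5-induced feedback inhibitor (10:95385362-95417180, minus strand), was at 625 and 575 CPM at pregnancy day 12.5, 618 and 538 at day 18.5 and 375 and 216 in lactation in hormone-sensing cells and at 23.1 and 23.3 CPM at pregnancy day 12.5, 12.1 and 14.5 at day 18.5 and 42.3 and 57.3 in lactation in alveolar cells. All 6 libraries had Socs2 higher in hormone-sensing cells (median log2 difference 4.42). Its change between stages passed no test within hormone-sensing cells (lactation against day 18.5 -0.66, SE 0.34, adjusted p = 0.386).

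Stat5a was at 127 and 122 CPM at pregnancy day 12.5, 48.1 and 52.8 at day 18.5 and 30.4 and 80.3 in lactation and Jak2 at 32.1 and 37.9 CPM at pregnancy day 12.5, 22.6 and 29.0 at day 18.5 and 8.01 and 16.1 in lactation, and neither was called between stages (-1.49, SE 0.37, adjusted p = 0.0616 for Stat5a at day 18.5 and -1.43, SE 0.45, adjusted p = 0.0822 for Jak2 in lactation against day 12.5). Ghr, the growth hormone receptor, was at 19.5 and 22.4 CPM at pregnancy day 12.5, 66.3 and 59.8 at day 18.5 and 28.8 and 28.6 in lactation and rose at day 18.5 (1.39, SE 0.31, adjusted p = 0.0407), a call kept in 2 of 6 fits without a library. Cish, another STAT5-induced inhibitor, was at 90.5 and 93.1 CPM at pregnancy day 12.5, 148 and 149.6 at day 18.5 and 52.9 and 69.6 in lactation and was not called between stages. Of 12 genes of the JAK2-STAT5 pathway tested, 1 rose and 1 fell (Ccnd1) at day 18.5 and 0 were called in the other 2 contrasts, where 2.71 and 6.36% of all genes were (medians -0.19, -0.23 and -0.33). Without G, F4 or B4 neither was called at day 18.5, and without F11 or D6 2 fell. Over the span 1 was lower without D6, and 1 was higher and 1 lower without F11.

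Receptor cofactors and luminal transcription factors were read next. Of 15 tested, 0 rose and 1 fell (Fkbp5) at day 18.5, 1 rose and 0 fell to lactation, and 1 was higher and 1 lower (Fkbp5) in lactation than at day 12.5, with medians of 0.21, 0.04 and 0.18, where 2.23, 2.71 and 6.36% of all genes were called. These calls were 1 or 2 genes and moved between 0 and 2 in fits without a library. Gata3, a luminal lineage factor, was at 204 and 195 CPM at pregnancy day 12.5, 305 and 501 at day 18.5 and 386 and 239 in lactation. Of 10 genes of luminal junctions and surface, 0 were called in the first 2 contrasts and 1 was higher in lactation than at day 12.5, with medians of 0.07, -0.01 and 0.15. That gene was the mucin Muc1, at 12.6 and 7.75 CPM at pregnancy day 12.5, 34.2 and 13.2 at day 18.5 and 36.8 and 173 in lactation (3.5, SE 0.69, adjusted p = 0.0130), and it was not called without the milk-rich hormone-sensing cells, without G or without D6, while 3 junction genes were higher without F11. Epcam, an epithelial adhesion protein, was at 802 and 701 CPM at pregnancy day 12.5, 1116 and 929 at day 18.5 and 1202 and 1459 in lactation and was not called.

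Cell cycle transcripts fell between the 2 pregnancy days. Top2a, a topoisomerase of dividing cells, was at 47.0 and 39.6 CPM at pregnancy day 12.5, 4.37 and 8.80 at day 18.5 and 8.01 and 3.57 in lactation (-2.90, SE 0.43, adjusted p = 0.00635), and Birc5, survivin, at 51.6 and 43.9 CPM at pregnancy day 12.5, 4.37 and 6.16 at day 18.5 and 3.20 and 0 in lactation (-3.34, SE 0.45, adjusted p = 0.00391). Of 12 cell cycle genes, 0 rose and 10 fell at day 18.5, 0 rose and 1 fell (Ube2c) from there to lactation, and 0 were higher and 10 lower in lactation than at day 12.5, with medians of -2.80, -0.54 and -3.26. Among all genes tested 1.26, 0.877 and 2.41% were lower. The count at day 18.5 was 0 without F4 and 5 without B4, and that from day 18.5 to lactation was 0 without either and 2 without F11. In alveolar cells 8 of 12 fell at day 18.5 and 12 of 12 were lower in lactation than at day 12.5, where 5.48 and 17.5% of 13387 genes were.

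Hormone-sensing cells with at least 3 cell cycle molecules, each cell thinned to 1000 counts outside the milk genes, were 11 and 8.68% at day 12.5, 0.815 and 0.578% at day 18.5 and 0.375 and 1.01% in lactation. The alveolar shares were 20 and 18.5%, 2.62 and 3.09%, and 0.583 and 0.0346%. Unthinned, with at least 5 molecules, the shares were 18.1 and 19.8%, 1.36 and 3.47%, and 0.730 and 1.0% in hormone-sensing cells and 54.2 and 51.5%, 6.71 and 11.3%, and 1.20 and 0.414% in alveolar cells. Both day 12.5 libraries were above the other 4 in either class, and in these 2 libraries the hormone-sensing share was the smaller one.

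Among 7 cell cycle control genes tested, 0 rose and 2 fell at day 18.5, namely Ccnd1 and the inhibitor Cdkn2c (-2.79, SE 0.57, adjusted p = 0.0287). From day 18.5 to lactation 1 rose, the inhibitor Cdkn1a (2.02, SE 0.47, adjusted p = 0.0460), and 0 fell, and in lactation against day 12.5 0 were higher and 1 was lower, the inhibitor Cdkn1c (from 33 counts to 1, ratio 17.5, counting interval 2.94 to 714, adjusted p = 0.0351). The medians were -1.58, -0.19 and -0.72, and 1.26, 1.84 and 2.41% of all genes were called in these directions. Cdkn1c was not called in any of the 6 fits that left out a library, Cdkn1a was not without B4, and the 2 falls at day 18.5 were 0 without G, F4 or B4 and 1 without H. Over the span 1 was higher without F4, B4 or F11.

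**Figure D4:**
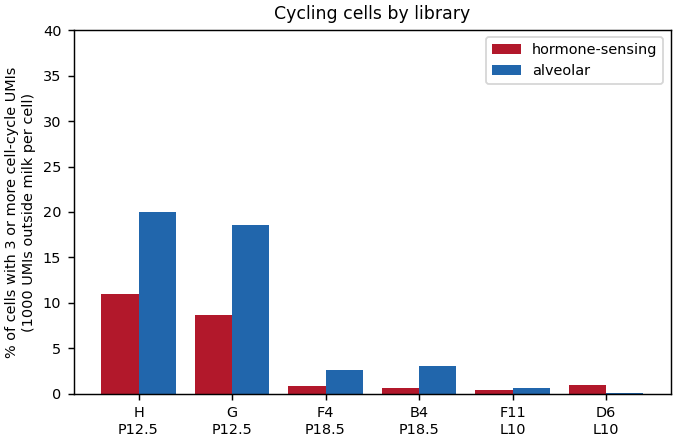
Percent of cells with at least 3 cell cycle molecules (vertical axis) in hormone-sensing and alveolar cells of the 6 libraries, each cell thinned to 1000 counts outside the milk genes. At day 12.5 the hormone-sensing shares are 11 and 8.68%, and in the other libraries at most 1.01%.

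Other genes that changed between the pregnancy days were named by size. Of the rises, Dppa1 was at 1.15 and 5.17 CPM at pregnancy day 12.5, 203 and 70.4 at day 18.5 and 1.60 and 0 in lactation (log2 change 5.08, SE 0.65, adjusted p = 0.00290) and fell again to lactation (from 358 counts to 1, ratio 135, counting interval 24.1 to 5348, adjusted p = 0.00232). Krt77, a keratin, was at 2.29 and 6.89 CPM at pregnancy day 12.5, 103 and 114 at day 18.5 and 4.81 and 14.3 in lactation (4.27, SE 0.48, adjusted p = 0.00222), and Nid1, a basement membrane linker protein, at 1.15 and 3.45 CPM at pregnancy day 12.5, 60.5 and 105 at day 18.5 and 25.6 and 78.6 in lactation (4.83, SE 0.69, adjusted p = 0.00495). Nid1 kept a high level in lactation and Dppa1 and Krt77 did not.

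Nrp1, a semaphorin and vascular growth factor co-receptor, was at 6.87 and 0.862 CPM at pregnancy day 12.5, 83.1 and 73.0 at day 18.5 and 3.20 and 19.6 in lactation (4.25, SE 0.64, adjusted p = 0.00651), and Dbp, a circadian transcription factor, at 2.29 and 6.03 CPM at pregnancy day 12.5, 141 and 58.1 at day 18.5 and 33.6 and 94.6 in lactation (4.27, SE 0.66, adjusted p = 0.00681). Kcnk3, a potassium channel, rose from 3 counts to 84 (ratio 19.9, counting interval 6.57 to 98.2). The other 2 of the 8 largest rises were Wap (5.07) and Cidea (4.65), genes of milk and milk fat described below.

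Of the falls, Defb1, a beta-defensin (8:21776599-21795185, plus strand), was at 985 and 969 CPM at pregnancy day 12.5, 7.29 and 34.3 at day 18.5 and 261 and 3.57 in lactation (-5.74, SE 1.17, adjusted p = 0.0284). Pnmt, the enzyme that converts noradrenaline to adrenaline (11:98386450-98388181, plus strand), was at 518 and 327 CPM at pregnancy day 12.5, 3.64 and 27.3 at day 18.5 and 75.3 and 0 in lactation (-4.96, SE 1.01, adjusted p = 0.0280). Both were near their day 12.5 level in no later library, and both were higher in F11 than in D6. Without F4 or without B4 neither call was kept.

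The histone genes Hist1h2ap (-6.10, SE 0.52, adjusted p = 0.000676) and Hist1h2ak (from 68 counts to 2, ratio 47.9, counting interval 12.8 to 404, adjusted p = 0.00290) also fell. Angptl7, a secreted angiopoietin-like protein, had 52 counts at day 12.5 and 0 at day 18.5, a level at least 24.4-fold lower. Tubb3, a tubulin, went from 45 counts to 1 (ratio 63.4, interval 10.8 to 2561), and Sult1a1, a sulfotransferase, from 27 to 1 (ratio 38.1, interval 6.27 to 1559).

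Milk transcripts rose into lactation in the gated cells. The 8 milk genes together were at 21112 and 12083 CPM at day 12.5, 75706 and 19018 at day 18.5 and 600135 and 1865840.0 in lactation, which was 37.5% (F11) and 65.1% (D6) of all hormone-sensing counts. Alveolar cells had 154301 and 161307, 513303 and 548080.0 and 3038530.0 and 3435270.0, and basal cells 13218 and 11063, 62467 and 24119 and 709805 and 148564. In F11 the hormone-sensing level lay below the basal level. In D6 it lay above it, and without the milk-rich cells described next it was 105003 and lay below it.

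Of the gated cells in lactation, 23 of 274 (F11) and 59 of 200 (D6) had at least 50% milk counts, and no pregnancy cell did. Values given without the milk-rich cells leave out these 82 cells and keep the 1757 and 2703 alveolar cells above the same limit. These 82 cells were deep, with median UMIs of 11829 and 20729. They held 269233 of the 998809 UMIs of all members in F11 and 1278636 of 1605034 in D6. Outside the milk genes their median depth was 2377 and 4600 UMIs, against 2007 and 1864 in the other members. Tph1 was seen in 21.7 and 20.3% of the milk-rich cells and in 61.8 and 83.7% of the other members. Calca was seen in 17.4 and 0% of the milk-rich cells and Prlr, a gene of the rule, in 100% and 98.3%. Calca was at 298 CPM in the milk-rich cells of F11 and 2415 in its other members. In D6 it was at 0 and 23.7, too low to part them. By Tph1, and in F11 also by Calca, the label of the class is less well borne out in the milk-rich cells than in the rest. Without them the milk level was 317626 and 105003.

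Of 8 milk genes, 2 rose and 0 fell at day 18.5 (Wap and Lalba), 7 rose and 0 fell from day 18.5 to lactation, and 8 were higher in lactation than at day 12.5 (medians 1.41, 4.89 and 6.24), where 0.973, 1.84 and 3.95% of all genes were higher. Without the milk-rich hormone-sensing cells 2, 2 and 7 were higher. Without 1 library 0 rose at day 18.5 (H, G or F4), 3 to lactation (B4) and 5 over the span (G). Wap, whey acidic protein, was at 142 and 68.9 CPM at pregnancy day 12.5, 6254 and 1901 at day 18.5 and 113130.0 and 388782 in lactation and Csn2, beta-casein, at 6812 and 4254 CPM at pregnancy day 12.5, 25430.5 and 6458 at day 18.5 and 135083 and 469581 in lactation. In alveolar cells 8, 7 and 8 of the 8 rose, where 7.81, 6.63 and 19.4% of 13387 genes did, against 4.95% called lower from day 18.5 to lactation.

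Of 11 alveolar markers outside the rule, 0 were called at day 18.5, 7 rose and 1 fell from there to lactation, and 9 were higher and 1 lower in lactation than at day 12.5 (medians 0.72, 2.87 and 3.31), against 1.84 and 3.95% of all genes higher in the lactation contrasts. Without the milk-rich cells the counts were 1 and 0, 1 and 0, and 4 and 1. Without B4 1 rose to lactation, the fall was lost without F4, B4, F11 or D6, and without F11 or D6 2 rose and 1 fell at day 18.5. Ltf was at 12.6 and 12.9 CPM at pregnancy day 12.5, 72.9 and 15.8 at day 18.5 and 604 and 1709 in lactation and Lcn2, lipocalin 2, at 133 and 134 CPM at pregnancy day 12.5, 268 and 76.5 at day 18.5 and 1405 and 818 in lactation. Rspo1, a Wnt agonist, was at 53.8 and 25 CPM at pregnancy day 12.5, 15.3 and 14.1 at day 18.5 and 0 and 0 in lactation and was the marker that fell.

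Of 11 milk lipid genes, 1 rose at day 18.5 (Cidea), 2 rose to lactation and 7 were higher in lactation than at day 12.5, with 0 lower in each (medians 0.83, 1.90 and 2.75), against 0.973, 1.84 and 3.95% of all genes. Without the milk-rich cells 1, 0 and 1 were. Without 1 library 0 rose at day 18.5 (H, G or F4) or 2 did (D6). To lactation 9 (F11), 5 (H or G) or 1 (B4 or D6) rose, and 2 were higher over the span without G. Cidea, a lipid droplet protein, was at 3.44 and 1.72 CPM at pregnancy day 12.5, 125 and 24.6 at day 18.5 and 1560.4 and 3330.0 in lactation, and Fasn, fatty acid synthase, at 63.0 and 45.7 CPM at pregnancy day 12.5, 253 and 70.4 at day 18.5 and 296 and 1041 in lactation, lower in every library than alveolar cells (268 and 247 CPM at pregnancy day 12.5, 998 and 1185 at day 18.5 and 1095 and 1616 in lactation for Fasn).

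**Figure D5:**
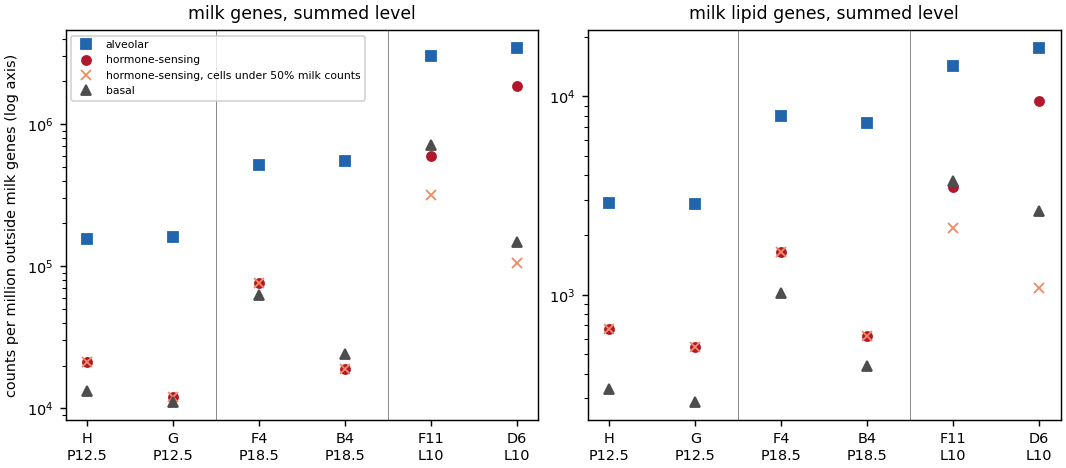
Summed level of the milk genes and of the milk lipid genes (vertical log axis, CPM outside the milk genes) in hormone-sensing cells, hormone-sensing cells under 50% milk, alveolar cells and basal cells of each library. In lactation the hormone-sensing milk level is 600135 in F11 and 1865840 in D6, and 317626 and 105003 without the milk-rich cells.

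Transcripts of other cell types were measured beside these results. Of 8 basal markers, 0 were called at day 18.5, 2 fell to lactation (Acta2 and Mylk) and 5 were lower in lactation than at day 12.5, with 0 higher (medians -0.57, -2.03 and -2.39), where 0.877 and 2.41% of all genes were lower in the lactation contrasts. Without 1 library the falls to lactation numbered 0 (F4, B4 or D6), 4 (H or G) or 5 (F11). Over the span 2 (G) or 3 (D6) were lower, and 1 fell at day 18.5 without F11 or D6. Their summed level was 1516 and 2798, 2101 and 946 and 396 and 127 in hormone-sensing cells and 1347 and 1997, 2169 and 723 and 551 and 126 in alveolar cells. The hormone-sensing and alveolar levels were of the same order in each library.

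Of 5 adipocyte markers 3 were tested, and Fabp4, Car3 and Cfd all rose to lactation, against day 18.5 and against day 12.5 (fitted medians 7.89 and 7.89, 0.00 at day 18.5, which rest on groups at 0 counts and are no bounds). Of all genes, 1.84 and 3.95% were higher in these contrasts. Adipoq and Plin1, the defining pair, were too low to test. The summed level in lactation was 705 and 1730.2 in hormone-sensing, 1324 and 1467 in alveolar and 3017 and 11299 in basal cells. Cfd, complement factor D, had 0 counts in all 4 pregnancy libraries and was at least 145-fold higher in lactation than at day 18.5.

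Of 6 immune markers 2 were tested: Cd74 rose from day 18.5 to lactation (5.05, SE 0.70, adjusted p = 0.00297) and Lyz2 fell (-3.39, SE 0.80, adjusted p = 0.0486), and Cd74 alone was higher in lactation than at day 12.5 (medians 0.96, 0.83 and 1.79). Over all genes 1.84% rose and 0.877% fell from day 18.5 to lactation and 3.95% were higher over the span. The rise of Cd74 was lost without B4 and the fall of Lyz2 without F11, F4 or B4, and 1 immune marker rose at day 18.5 without F11. Of 6 fibroblast markers 2 were tested, and Col3a1 was higher in lactation than at day 18.5 and at day 12.5 (medians -0.49, 3.05 and 2.56), where 1.84 and 3.95% of all genes were, and without F11 both markers were. No endothelial marker of 4 was high enough to test.

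The erythroid markers parted in pregnancy. Hba-a1, alpha-globin (11:32283511-32284465, plus strand), was at 253 and 247 CPM at pregnancy day 12.5, 60.5 and 171 at day 18.5 and 73.7 and 62.5 in lactation in hormone-sensing cells, while Hbb-bs, beta-globin, was at 1.15 and 0 CPM at pregnancy day 12.5, 0 and 0 at day 18.5 and 70.5 and 42.9 in lactation. Hba-a1 was seen in 54.9 and 57.6% of hormone-sensing cells at day 12.5 and in 17.9 and 37.6% at day 18.5, against at most 0.460% of alveolar and 0.523% of basal cells. Of 3 erythroid markers tested, 0 were called at day 18.5, 1 rose to lactation (Hbb-bs), and in lactation against day 12.5 Hbb-bs was higher and Hba-a1 lower (-1.75, SE 0.45, adjusted p = 0.0398; medians -2.10, 0.70 and -1.41). The shares of all genes were 1.84% higher to lactation and 3.95% higher and 2.41% lower over the span. The Hba-a1 call was lost without H, G or D6, and 1 marker fell at day 18.5 without B4, F11 or D6. In lactation Hba-a1 stood at 168 and 186 in alveolar and 659 and 3472 in basal cells, and Hbb-bs at 284 and 299 and 988 and 5215, so the hormone-sensing levels of both globins were then the lowest of the 3 classes.

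Of 10 dissociation stress genes, 0 were called in the first 2 contrasts and 4 were higher in lactation than at day 12.5 (Fos, Junb, Dnajb1 and Hspa1a), with medians of 0.62, 0.65 and 1.27, against 3.95% of all genes. Without 1 library the 4 became 1 (H or G), 2 (F4 or B4) or 7 (F11), 3 were higher at day 18.5 without F11 or D6, and 3 rose to lactation without F11. Fos, an immediate early gene, was at 974 and 1168 CPM at pregnancy day 12.5, 1868 and 1849 at day 18.5 and 2664 and 3605 in lactation in hormone-sensing and 1072 and 1135 CPM at pregnancy day 12.5, 2599 and 1551 at day 18.5 and 2903 and 2526 in lactation in alveolar cells. The part of milk, blood, adipocyte and stress transcripts in the lactation contrasts was not tested.

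Further genes were named by the size of their change into lactation. Csn1s2b had the largest rise against either pregnancy day (11.81, SE 1.18, adjusted p = 0.000425 against day 18.5). Orm1, an acute phase glycoprotein, was at least 81.3-fold higher than at day 18.5, the beta-globin Hbb-bs at least 60.1-fold, the chemokine Ccl4 at least 40.7-fold and Car3, a carbonic anhydrase, at least 28.3-fold, all from 0 counts. Rbp7, a retinol-binding protein, was at 1.15 and 3.45 CPM at pregnancy day 12.5, 0.729 and 0 at day 18.5 and 59.3 and 329 in lactation (from 1 count at day 18.5 to 221, ratio 586, counting interval 104 to 23245, adjusted p = 0.00127), and Slc39a8, a zinc transporter, at 0 and 1.72 CPM at pregnancy day 12.5, 0.729 and 1.76 at day 18.5 and 57.7 and 387 in lactation (from 3 counts to 253, ratio 224, counting interval 75.6 to 1091, adjusted p = 0.00210). Alveolar cells showed rises of the same genes: all 6 were called from day 18.5 to lactation (adjusted p from 0.000212 to 0.0138), with lactation levels of 434 and 99.2 for Orm1 and 247 and 690.5 for Slc39a8. The difference between the classes was called for none of the 6, nor for Csn1s2b (adjusted p = 0.242). Outside Hbb-bs, which had no SE, the adjusted p ran from 0.0713 (Rbp7) to 0.912 (Car3). The SEs were 2.99 for Orm1, 3.53 for Car3 and 4.45 for Ccl4, all at 0 counts at day 18.5. For these genes and Hbb-bs, a missing call does not show that the classes changed alike.

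Against day 12.5, the acute phase genes Saa1 (1.15 and 0 CPM at pregnancy day 12.5, 40.8 and 7.92 at day 18.5 and 1205 and 33.9 in lactation) and Saa2 (0 and 0.862 CPM at pregnancy day 12.5, 43.7 and 7.04 at day 18.5 and 1139 and 33.9 in lactation) rose from 1 count each (ratio 1449.8, counting interval 259 to 57336, and ratio 1373, interval 246 to 54291). H2-Q1, a class I histocompatibility gene, had 0 counts at day 12.5 and was at least 103-fold higher in lactation, with 40.1 and 248 CPM. Saa3, also from 0 counts, was at least 164-fold higher, with 413 and 5.36 CPM in lactation, and was not called without F11 or without G. In lactation the 3 Saa genes were higher in F11 than in D6 and H2-Q1 was higher in D6, and alveolar cells held 9595 and 84.8 Saa1 CPM. These 4 genes were also called higher in alveolar cells over the span (adjusted p from 0.000469 to 0.0184). The difference between the classes was called for none of them (adjusted p from 0.472 to 0.768). With 0 or 1 counts at day 12.5, its SE ran from 1.38 (Saa1) to 4.68 (H2-Q1), so the missing calls do not show equal changes.

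Fxyd4, an ion transport regulator, was at 88.2 and 93.1 CPM at pregnancy day 12.5, 444 and 303 at day 18.5 and 3.20 and 1.79 in lactation and fell from day 18.5 to lactation (from 953 counts to 3, ratio 119.8, counting interval 40.9 to 582, adjusted p = 8.64e-05). H19, an imprinted noncoding RNA, was at 356 and 388 CPM at pregnancy day 12.5, 59.7 and 215 at day 18.5 and 0 and 1.79 in lactation and also fell (from 326 counts to 1, ratio 123, interval 21.9 to 4872, adjusted p = 0.00386). Fxyd4 and H19 were close to 0 in both lactation libraries, and both calls were kept in 6 of 6 fits without a library. Igfbp2, another growth factor binding protein, was at 68.7 and 163 CPM at pregnancy day 12.5, 47.4 and 31.7 at day 18.5 and 1.60 and 0 in lactation (from 101 counts at day 18.5 to 1, ratio 38.1, interval 6.68 to 1519, adjusted p = 0.0163).

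The ubiquitin-conjugating enzyme Ube2c had 0 counts in lactation and was at least 30.5-fold lower than at day 12.5, and the bicarbonate transporter Slc4a5 at least 6.04-fold lower than at day 18.5. Rspo1 and Hpgd, the prostaglandin-inactivating enzyme, also had 0 lactation counts, and the calls against day 18.5 of Slc4a5, Rspo1 and Hpgd (adjusted p = 0.0163, 0.0488 and 0.0460) were lost in several fits that left out a library. Fmod, a matrix proteoglycan (18.3 and 43.1 CPM at pregnancy day 12.5, 18.9 and 8.80 at day 18.5 and 0 and 0 in lactation), Kcns1, a potassium channel subunit (30.9 and 29.3 CPM at pregnancy day 12.5, 7.29 and 4.4 at day 18.5 and 0 and 0 in lactation), and Fbn2, a fibrillin (37.8 and 23.3 CPM at pregnancy day 12.5, 2.19 and 0.880 at day 18.5 and 0 and 0 in lactation), were each at 0 in lactation.

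Whether stage changes differed between hormone-sensing and alveolar cells was tested over 13464 genes, with library as a term. Genes of the rule stayed in this fit as well and were 2, 2 and 3 of the calls in the 3 contrasts. At day 18.5 against day 12.5, 645 genes differed (4.79%), 291 with the higher change in hormone-sensing cells (2.16%) and 354 with the lower (2.63%). From day 18.5 to lactation 525 differed (3.9%), 220 higher (1.63%) and 305 lower (2.27%), and over the whole span 1052 (7.81%), 464 higher (3.45%) and 588 lower (4.37%). Without TMM scaling, whose absence moved the median difference by 0.56, 0.45 and 1.02, the calls split into 1078 higher and 86 lower, 379 and 96, and 3400 and 163.

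The change of Socs2 from day 18.5 to lactation differed between the classes (difference in log2 change -2.94, SE 0.30, adjusted p = 8.96e-11): it rose in alveolar cells (2.14, adjusted p = 0.00318) and was -0.66, adjusted p = 0.386 in hormone-sensing cells. The difference was called under all 8 other settings and all 6 fits without a library. Of 12 JAK2-STAT5 genes, 0 had a higher and 4 a lower change in hormone-sensing cells at day 18.5, 1 and 1 to lactation, and 1 and 5 over the whole span, against 2.16 and 2.63%, 1.63 and 2.27%, and 3.45 and 4.37% of all 13464 genes. Stat5a (-1.85, SE 0.25, adjusted p = 4.75e-07) and Ghr (-1.67, SE 0.32, adjusted p = 0.000277) were among the 4, and Jak2 (-1.84, SE 0.46, adjusted p = 0.00587) and Cish (-0.92, SE 0.28, adjusted p = 0.0288) among the 5. The 4 became 1 without G, the 5 became 1 without G and 3 without H or F11, and without F11 0 were higher. The Cish call was kept in 3 of 6 fits without a library, and its value was 0.10 without TMM scaling.

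Fkbp5 (-4.06, SE 0.32, adjusted p = 1.79e-14) and Zbtb16 (-6.21, SE 0.44, adjusted p = 2.11e-16) had a lower change in hormone-sensing than in alveolar cells at day 18.5, as did Tsc22d3, a glucocorticoid-induced leucine zipper gene (-1.61, SE 0.28, adjusted p = 7.96e-05), and Xbp1, a secretory stress factor (-1.25, SE 0.30, adjusted p = 0.00605). They were the 4 of 11 steroid receptor targets with a lower change, and 0 had a higher one. To lactation the counts were 1 higher and 0 lower, and over the whole span 1 and 4. Of 9 hormone-regulated signals, 1 was higher (Tgfa, 2.96, adjusted p = 0.00840) and 1 lower (Areg, -1.76, adjusted p = 0.00447) at day 18.5, 0 and 0 to lactation, and 2 and 3 over the whole span. The shares of all 13464 genes, for both of these lists, were 2.16% higher and 2.63% lower at day 18.5, 1.63 and 2.27% to lactation, and 3.45 and 4.37% over the span. Wnt4 (0.95, adjusted p = 0.0403) was among the 2, a call kept in 2 of 6 fits without a library, and Calca (-1.40, adjusted p = 0.0302) among the 3, kept in 3 of 6. Without H the 2 were 0 and the 3 were 1, and without F11 the 2 were also 0. The single signals of day 18.5 were lost without B4 or H (higher) and F4 (lower). The 4 steroid targets of the span were 2 without G or H, and 0 were higher without F11.

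Areg in alveolar cells was at 4.37 and 4.53 CPM at pregnancy day 12.5, 1.30 and 0.466 at day 18.5 and 5.18 and 1.16 in lactation and in basal cells at 2.19 and 2.71 CPM at pregnancy day 12.5, 0.715 and 0.119 at day 18.5 and 1.24 and 9.28 in lactation. The alveolar level was above the basal one in 5 libraries and below it in D6. The same shares of all genes apply to the next counts. Among 10 markers outside the rule, 0 were higher and 2 lower at day 18.5, 0 and 2 to lactation (Ly6a and S100a6), and 1 and 3 over the span. S100a6 (-1.11, adjusted p = 0.0295) was not called without B4 or D6, and without either 0 were lower to lactation. Of 16 cofactors and luminal factors, 0 and 3, 0 and 1, and 0 and 1 were called. Of 10 junction genes, 1 and 0, 0 and 1, and 3 and 1 were. Counts in both lists fell in some fits without a library. Cdh1, E-cadherin, had the higher change in hormone-sensing cells over the span (difference 1.37, SE 0.28, adjusted p = 0.000577) and was not called within them.

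From day 18.5 to lactation 4 of 8 milk genes, 5 of 12 alveolar markers and 8 of 12 milk lipid genes had the higher change in hormone-sensing cells and 0 the lower, where 1.63 and 2.27% of all genes did. Without the milk-rich hormone-sensing cells, and with all alveolar cells kept, 0, 0 and 0 of them were called. Without B4 also 0, 0 and 0 were. Without H or G 1 milk gene was, and without D6 5 milk lipid genes were. At day 18.5 against day 12.5 the 3 lists gave 0 higher and 1 lower (Csn1s2b, -3.61, SE 0.84, adjusted p = 0.00374), 0 and 2 (Lcn2 and Mfge8), and 0 and 2 (Acaca and Lpin1), and over the span 1 and 0, 2 and 0, and 2 and 0. The shares of all genes in these contrasts were 2.16 and 2.63%, and 3.45 and 4.37%. The day 18.5 calls were 0, 0 and 0 without B4 or H, and those of the span 0, 0 and 0 without G or without the milk-rich hormone-sensing cells. Of 12 cell cycle genes, 0 were higher and 1 lower at day 18.5, 1 and 0 to lactation, and 1 and 1 over the span.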

How the data were processed

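FVB/NJ glands were dissociated, depleted of Ter119+, CD31+ and CD45+ cells, sorted with CD29 and CD24 and captured with 10x Chromium 3' chemistry. The deposited values are raw UMI counts of 31053 features in each barcode. They come from Cell Ranger (3.0.2 per the file headers, 3.1.0 in the submitters' processing notes) on mm10, and the authors exported barcodes with at least 500 reads. Gene positions are those of GRCm38 (mm10) annotation. From the counts, cells were selected as the report states (500 genes, 20% mitochondrial), and counts were summed per library and class. Libraries were grouped by the stage in their labels, 2 per stage.

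Stage contrasts used edgeR 4.0.16 in R 4.3.3 (quasi-likelihood fit over 6 sums, TMM, filterByExpr, Benjamini-Hochberg adjusted p under 0.05 over all genes), and the comparison with alveolar cells the interaction of class and stage over both classes' sums with library as a term. Levels in CPM leave 8 milk genes out of the denominator, and log2 differences between classes add 5 CPM. For a gene at 0 counts in a group, a bound was taken from 3 counts over that group, and ratios printed from 1 to 3 counts carry exact 95% counting intervals. Both edgeR fits were run on simulated counts with known changes between the pregnancy days. The simulated classes were drawn independently, without library effects beyond depth and without changes in lactation. The run therefore does not cover those features of the data.

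Named genes were, for each contrast, the 8 rises and 8 falls of largest log2 change among called genes whose libraries did not overlap, with at least 10 counts per library in the higher group. The 5 largest interactions each way and the 12 highest and 8 lowest genes against alveolar cells (30 CPM, same sign in 6 of 6 libraries) were named as well, leaving out genes of the rule, mitochondrial, ribosomal protein genes and symbols of the Gm and Rik series. Members of 18 gene lists were added, of which 1 gene is counted with its lists and its values are not reported here. The cells, members and lists were chosen with earlier results of these data known, so they are no independent support.

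Alternatives were DESeq2 1.42.0, no TMM, no low-count filter, counts outside milk genes, other cell limits, the study's upper limits, leaving out each library and leaving out hormone-sensing cells with at least 50% milk counts. The last, and shares of all kept cells and of luminal cells under 50% milk, were chosen after seeing the data. Doublets were scored with Scrublet in Scanpy 1.11.5 and kept in, and an alternative left out the top 5% of scores. Scrublet called 0.623 to 3.27% of cells in the pregnancy libraries and 0.0374 and 0.0444% in lactation, where it had not worked. Among hormone-sensing cells it called 9.89% (H), 5.76% (G), 4.89% (F4) and 2.31% (B4). These rates lay above the rate over all kept cells of the same library, 3.27, 3.21, 1.74 and 0.623%. Among alveolar cells the rates were 4.79, 5.93, 2.24 and 0.856%. The hormone-sensing rate was above the alveolar one in H, F4 and B4 and below it in G. Counting error limits the sums of 173 to 368 cells per library.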

Additional observations from a re-analysis of the deposited data

Results flagged for a closer look

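The following differences between hormone-sensing and alveolar cells in the log2 change between stages passed the test of the difference itself and were the 5 largest in each direction under the naming limits. They are given as values, and their causes were not tested.

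At pregnancy day 18.5 against day 12.5, the change was higher in hormone-sensing cells for Slc4a5 (6.77), Fndc10 (4.94), Plagl1 (4.74), Nid1 (4.58) and Hist3h2ba (4.14). Plagl1, an imprinted zinc finger gene, was at 3.44 and 3.45 CPM at pregnancy day 12.5, 20.4 and 28.2 at day 18.5 and 36.8 and 91.1 in lactation in hormone-sensing cells and at 3.93 and 3.96 CPM at pregnancy day 12.5, 1.14 and 0.569 at day 18.5 and 1.67 and 2.46 in lactation in alveolar cells. Nid1, a basement membrane protein gene, was at 1.15 and 3.45 CPM at pregnancy day 12.5, 60.5 and 105 at day 18.5 and 25.6 and 78.6 in lactation in hormone-sensing cells and at 1.23 and 1.24 CPM at pregnancy day 12.5, 0.992 and 2.07 at day 18.5 and 3.84 and 5.06 in lactation in alveolar cells. The change was lower for Defb1 (-8.13), AC102334.1 (-7.47), Zbtb16 (-6.21), Sult1a1 (-5.97) and Gabbr2 (-5.45). Defb1, a defensin gene, was at 985 and 969 CPM at pregnancy day 12.5, 7.29 and 34.3 at day 18.5 and 261 and 3.57 in lactation in hormone-sensing cells and at 5.38 and 5.83 CPM at pregnancy day 12.5, 27.7 and 25.6 at day 18.5 and 65.7 and 23.0 in lactation in alveolar cells. Gabbr2, a GABA receptor subunit, was at 19.5 and 11.2 CPM at pregnancy day 12.5, 11.7 and 23.8 at day 18.5 and 4.81 and 5.36 in lactation in hormone-sensing cells and at 0 and 0 CPM at pregnancy day 12.5, 0.305 and 0.569 at day 18.5 and 0 and 0.578 in lactation in alveolar cells.

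From day 18.5 to lactation, the change was higher for Ncmap (6.61), Col3a1 (4.01), Bex1 (3.01), Kcnk6 (2.94) and Gchfr (2.93). The Kcnk6 difference was 0.58 (edgeR adjusted p = 0.855) without the milk-rich hormone-sensing cells and 1.17 (adjusted p = 0.564) without library D6. The change was lower for Hpgd (-13.04), Slc13a1 (-10.83), Hba-a1 (-9.88), Lyz2 (-6.54) and C1qa (-5.80). The Hba-a1 value rests on alveolar cells that were near 0 in pregnancy. There the 4 erythroid markers together were at 0.676 and 1.06 CPM at day 12.5, 0.191 and 0.466 at day 18.5 and 487 and 520 in lactation. In hormone-sensing cells they were at 269 and 258, 64.1 and 173, and 159 and 111. Lyz2, lysozyme, was at 19.5 and 30.2 CPM at pregnancy day 12.5, 119 and 38.7 at day 18.5 and 0 and 12.5 in lactation in hormone-sensing cells and at 0.193 and 0.181 CPM at pregnancy day 12.5, 1.11 and 0.104 at day 18.5 and 1.67 and 6.50 in lactation in alveolar cells. C1qa, a complement gene of macrophages, was at 2.29 and 1.72 CPM at pregnancy day 12.5, 8.01 and 3.52 at day 18.5 and 14.4 and 32.1 in lactation and at 0.217 and 0.0906 CPM at pregnancy day 12.5, 0.114 and 0.207 at day 18.5 and 28.4 and 39.4 in lactation in the same order.

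Over the whole span from day 12.5 to lactation, the change was higher for Cysrt1 (5.79), Bex1 (5.72), Tcea3 (5.46), Bex4 (5.45) and Sorl1 (5.09). Bex1, a small adaptor protein gene, was at 69.9 and 82.7 CPM at pregnancy day 12.5, 93.3 and 88.0 at day 18.5 and 75.3 and 87.5 in lactation in hormone-sensing cells and at 23.6 and 23.4 CPM at pregnancy day 12.5, 3.66 and 3.73 at day 18.5 and 0.334 and 0.433 in lactation in alveolar cells, where it fell (-5.49, adjusted p = 0.000102). Sorl1, a sorting receptor, was at 13.7 and 19.0 CPM at pregnancy day 12.5, 58.3 and 73.0 at day 18.5 and 60.9 and 71.4 in lactation and at 17.4 and 16.9 CPM at pregnancy day 12.5, 9.62 and 12.9 at day 18.5 and 1.67 and 1.73 in lactation in the same order. The change was lower for Angptl7 (-13.47), Serpinb11 (-10.97), Tubb3 (-10.80), Hba-a1 (-10.15) and Ube2c (-8.88).

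A group of libraries at 0 counts underlies the values of Slc4a5, Ncmap, Hpgd, Slc13a1, Angptl7, Serpinb11, Tubb3, Ube2c and Gabbr2, so these depend on the prior count and are no bounds. Of the 6 fits that each left out 1 library, the difference was called in 0 for Slc13a1 and Tubb3 and in 2 for Slc4a5 and Serpinb11.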

How the results depend on the processing

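No paired analysis was run. The labels give letters, and the paper numbers the replicates within each stage without saying that a number links pools across stages. The share of hormone-sensing cells passed no threshold under any alternative (exact permutation p 0.0667 to 0.6), a design that cannot reach 0.05. Calls at day 18.5 against day 12.5, from day 18.5 to lactation and over the span numbered 108, 4220 and 3227 without TMM, 585, 663 and 1108 without the low-count filter, and 90, 121 and 211 in cells of 1000 or more genes. Lactation against day 18.5 gave 145 calls without Prlr in the rule. With at least 5 hormone gene UMIs the 2 lactation contrasts gave 141 and 346, and without hormone-sensing cells of at least 50% milk counts (called milk-rich here), an alternative chosen after seeing the data, 59 and 342. Leaving out 1 library gave 10 (F4), 50 (G), 52 (B4), 63 (H), 691 (D6) and 695 (F11) in the first contrast, 43 (B4), 103 (F4) and 639 (F11) at the extremes of the next, and 150 (G), 256 (H) and 1116 (F11) over the span. DESeq2 gave 131, 203 and 385.

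Differences from alveolar cells numbered 247, 150 and 519 with DESeq2, and 1164 and 3563 in the first and last contrast without TMM. From day 18.5 to lactation they were 340 on counts outside the milk genes and 345 with at least 3 alveolar gene UMIs, and without milk-rich cells 402 and 304 in the first 2 contrasts. Leaving out 1 library gave 214 (H), 217 (G), 383 (B4), 1200 (D6) and 1212 (F11), then 280 (B4) to 645 (F11), and 405 (G) and 537 (H) to 1174 (B4). With all counts in the denominator, 2303 genes were higher than in alveolar cells in 6 of 6 libraries, where 1441 were outside milk.

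Directions turned for these genes, each called in the main fit or under the other setting. In the difference over the span without milk-rich cells: Btn1a1 -0.80, Glycam1 -0.48, Trf -0.79, Thrsp -0.47 and Muc15 -1.41, and without TMM Mylk 0.025, Tagln 0.13 and Cish 0.10. In the difference from day 18.5 to lactation without milk-rich cells: Btn1a1 -0.10, Csn3 -0.45, Folr1 -0.77, Acaca -0.65, Lpin1 -0.45, Glycam1 -0.18, Lalba -0.14, Xdh -0.51, Cidea -0.23, Fasn -0.49, Mfge8 -0.62, Trf -0.33, Muc15 -0.81 and Csn1s2a -0.14. Within hormone-sensing cells, Muc15 over the span without milk-rich cells -0.026, and without TMM from day 18.5 to lactation Ncor1 -1.30, Srebf1 -1.18, Ncoa1 -1.30, Grhl2 -1.34 and Socs3 -1.44. For the other values of single genes, 7232 kept their side of the threshold, 721 lost their call and 286 gained one. The 7232 include levels against alveolar cells that moved by less than the SD over libraries. Direction was not compared for genes called in neither fit, so the 7232 can hold turned directions. The causes were not tested.

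Limits: 2 pools per stage, sums of 173 to 368 cells, a rule that reads depth, and milk RNA of unknown origin in lactation members. Processing batch cannot be told apart from stage. With a single library left in a stage, it was assumed to vary like the others.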

Other observations

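In several hormone-sensing genes the lactation libraries stood apart, and with 1 pool each their difference was not tested. Calca was at 2176 CPM in F11 and 12.5 in D6, Areg at 473 and 21.4, Slpi at 7739 and 482, and Myb at 48.1 and 3.57. Pgr, a gene of the rule, was at 62.5 and 8.93, and Pnmt at 75.3 and 0. Esr1, also of the rule, was at 57.7 in F11 and 130.3 in D6. Tph1 was at 567 and 609 in the same libraries, and at 623 and 1056 without the milk-rich cells. Calca was then at 2415 and 23.7 and Slpi at 8626 and 748. The milk-rich cells were 8.39% of members in F11 and 29.5% in D6, and the median mitochondrial share was 4.71 and 10.8%. Levels come from summed counts, in which the deep milk-rich cells weighed more than their share of members. In D6 their median depth outside the milk genes was 4600 UMIs, against 1864 in the other members. D6 levels given only with all members rest in part on them.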
